A study of Mus musculus with 2 samples.

Results

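The genes described here encode fibronectin and 9 matricellular proteins, a class of secreted glycoproteins that sit in the extracellular matrix and act on cells more than they build the scaffold. They are Postn, Tnc, Thbs1, Thbs2, Thbs3, Sparc, Sparcl1, Spp1, Spon1 and Fn1, taken by gene symbol from a table of 37309 mouse genes, and all 10 were found there with 1 row each. RNA sequencing had been performed on intestinal subepithelial myofibroblasts (ISEMFs), the spindle-shaped mesenchymal cells beneath the small intestinal epithelium, in order to compare a population labelled supportive of intestinal crypt growth with another labelled non-supportive. Supportive ISEMFs were grown from neonatal C57BL/6 mice, 5 days old by the study's methods, and non-supportive ISEMFs from adult C57BL/6 mice, 2 months old. Both were wild type and were expanded in the same serum-containing medium with insulin, transferrin and epidermal growth factor. There was 1 library of each population, so no difference below has a replicate check, and age, isolation and population cannot be told apart. The number of mice behind each culture is not given in the sources used here. Names in the deposited data carry the tag P16 for the supportive and P3 for the non-supportive culture, which the sources do not explain. If the tags are passage numbers, then passage differed as well and cannot be told apart from the population.

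The supportive library held 50674472 reads on genes and the non-supportive library 49615497. Levels are given as RPKM, a read count scaled to exon length and library size. Intervals are at 95% and exact (Clopper-Pearson for ratios, Poisson for levels). They cover counting error in these libraries only and say nothing of how other cultures would vary. The libraries are of bulk cells, so fewer cells of a type and less RNA per cell cannot be told apart.

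Fibronectin is assembled by cells into fibrils through integrins, of which α5β1 is the classic receptor. Many matricellular proteins bind the same fibrils, collagens and integrins and loosen or tune cell adhesion, and most are known for high levels in development and in wound repair. Several of them meet integrins through a short arginine-glycine-aspartate (RGD) site. In the longest complete coding sequence of each gene in GENCODE vM1, 4 of the 10 members encode at least 1 such site, against 7.12% of 21463 genes with a complete coding sequence. The share over all genes was not matched for coding length, and longer sequences have more places for so short a site. The sites are shown because they are the most direct link between these genes and the integrin receptors described further on. Each line holds the 9 bases of the RGD codons in capitals with 24 coding bases on either side, 5′ to 3′ on the strand of the gene.
Fn1: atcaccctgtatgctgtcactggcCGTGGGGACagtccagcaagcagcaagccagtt
Spp1: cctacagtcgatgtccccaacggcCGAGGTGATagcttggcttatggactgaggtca
Thbs1: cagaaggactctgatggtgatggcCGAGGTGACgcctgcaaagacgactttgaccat
Thbs2: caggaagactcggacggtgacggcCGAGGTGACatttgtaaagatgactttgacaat

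The Fn1 codons lie at chr1:71653320-71653328 of mm9 on the minus strand, in exon 30 of 46, and Fn1 encodes a further RGD nearer its end, at codon 2181 of 2477. Those of Spp1 lie at chr5:104868500-104868508 on the plus strand, in exon 7 of 8. Those of Thbs1 lie at chr2:117948618-117948626 on the plus strand, in exon 18 of 22. Those of Thbs2 lie at chr17:14808491-14808499 on the minus strand, in exon 18 of 22. The Thbs1 and Thbs2 stretches share 46 of their 57 bases. Postn, Tnc, Thbs3, Sparc, Sparcl1 and Spon1 encode no RGD in the sequences searched. The genes with the site did not share a direction between the libraries: Thbs2 was higher in supportive ISEMFs, Spp1 was lower, and Fn1 and Thbs1 had ratios of 1.28 and 1.22.

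Of the 10 members, 9 reached 1 RPKM in one library or both and could be compared by fold. Spon1 stayed below that level in both. Of these 9, 6 were at least 2-fold apart (in RPKM + 0.1), which is 66.7%, against 18.3% of the 10086 genes at that level. Among the 6, Thbs3 and Sparcl1 reached 1 RPKM only in the library where they were higher. The members and the gene lists below were chosen with earlier results of these data known, so such shares describe them and test nothing. Thbs3, Thbs2 and Postn were at least 2-fold higher in supportive ISEMFs, where 9.01% of genes were. Spp1, Tnc and Sparcl1 were at least 2-fold lower, where 9.27% of genes were. Fn1, Thbs1 and Sparc fell in neither set. The median log2 ratio of supportive over non-supportive was 0.29 over the 9 members and -0.07 over all 10086 genes. The median size of the log2 ratio, without its sign, was 1.98 for the members and 0.42 for all genes.

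**Figure D1:**
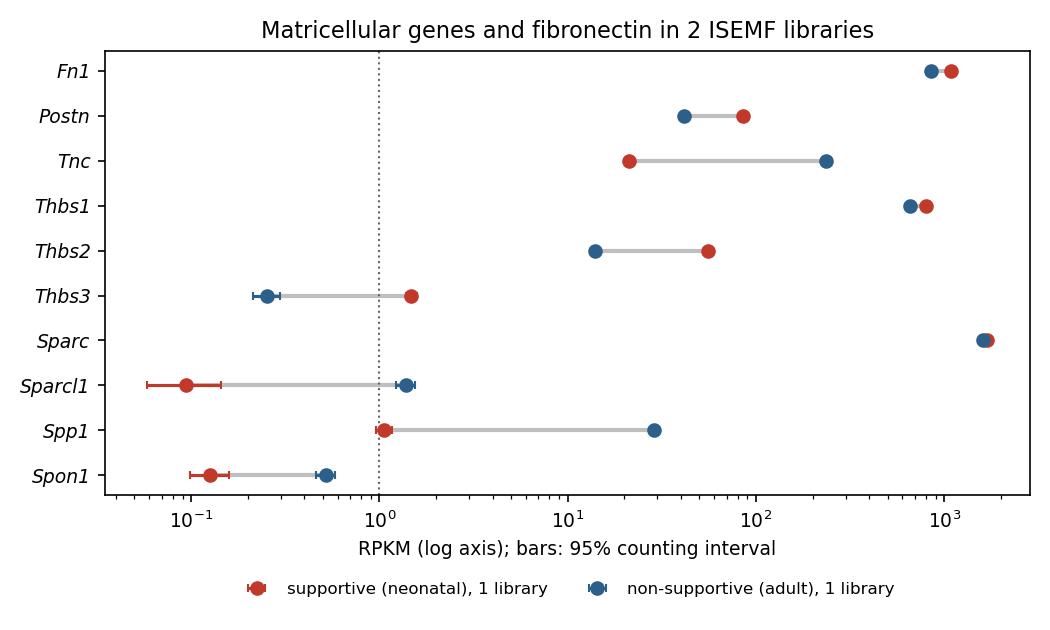
RPKM of each of the 10 genes in the supportive (red) and non-supportive (blue) library on a log axis, with 95% Poisson counting intervals; the dotted line marks an RPKM of 1. Fn1, Thbs1 and Sparc lie farthest to the right, between 656 and 1698, with the colors close together, while Tnc, Spp1 and Sparcl1 are spread apart toward the non-supportive library.

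Sparc, Fn1 and Thbs1 made nearly all of the RNA of this group. Sparc encodes osteonectin, a calcium- and collagen-binding glycoprotein. Its level was 1698 RPKM (507947 reads) in supportive and 1599 RPKM (464647 reads) in non-supportive ISEMFs. These levels were rank 2 and rank 1 among 22379 protein-coding genes. The ratio was 1.06 (95% interval, 1.06 to 1.07), so Sparc was close to level.

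Fn1 stood at 1087 RPKM (792872 reads) in supportive and 850 RPKM (602673 reads) in non-supportive ISEMFs, at ranks 4 and 8. It took 1.56% of all gene reads for supportive ISEMFs, against 1.21%. The ratio was 1.28 (1.27 to 1.28). Reads were counted per gene, so the alternatively spliced forms of fibronectin, including those that cells place in the matrix and those of plasma, are not separated. Thbs1 stood at 799 RPKM (371698 reads) against 656 RPKM (296395 reads), at ranks 8 and 14. Its ratio was 1.22 (1.21 to 1.22). The summed RPKM of these 3 genes came to 3585 for supportive and 3105 for non-supportive ISEMFs, which was 95.6% and 90.6% of the sum over all 10 members.

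The other 7 members summed to an RPKM of 165 in supportive and 323 in non-supportive ISEMFs. Over all 10, the sums were 3749 and 3427, a ratio of 1.09. The group as a whole was therefore near level while its less abundant members stood on opposite sides.

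**Figure D2:**
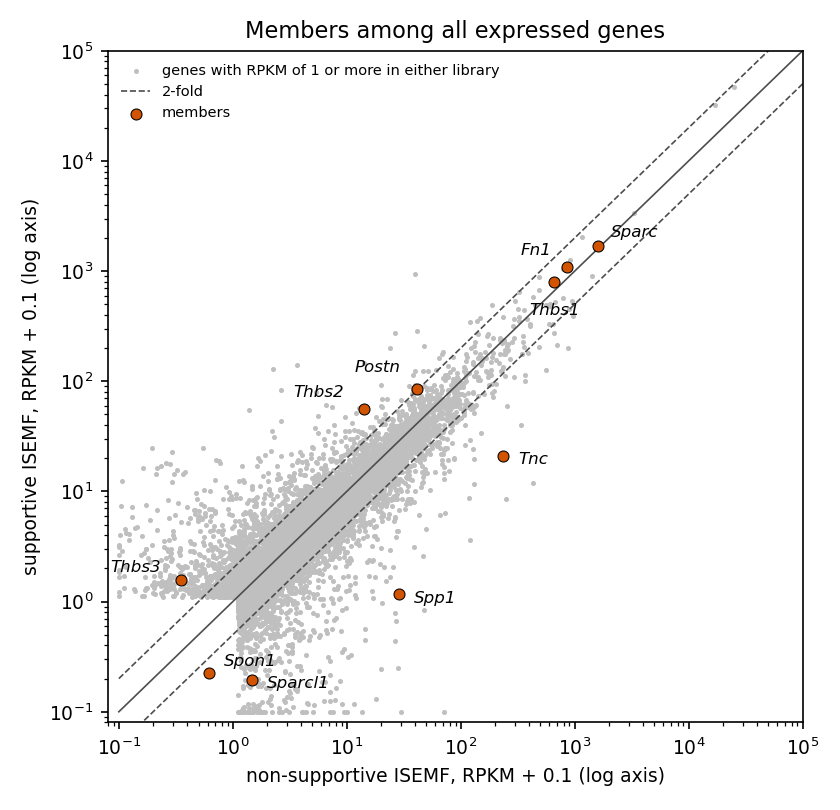
Each gray point is 1 of the 10086 genes reaching 1 RPKM in one library or both, with its RPKM + 0.1 in non-supportive ISEMFs on the x axis and in supportive ISEMFs on the y axis, both log; orange points are the 10 members, the solid line is equality and the dashed lines 2-fold. Fn1, Thbs1 and Sparc sit close to the solid line, at an RPKM between 656 and 1698, and 3 members above the minimum level lie beyond each dashed line.

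The thrombospondins differed in both level and ratio. Thbs1 and Thbs2 carry the type 1 repeats through which thrombospondins meet CD36, and Thbs1 is known for activating latent TGF-β. Thbs3 belongs to the other subgroup of the family, which lacks those repeats. Thbs2 stood at 55.7 RPKM (23575 reads) against 14.0 RPKM (5759 reads). That is 3.98-fold higher in supportive ISEMFs (3.87 to 4.10), and 331st from the top of the 10086 genes ordered by log2 ratio. Thbs3 was far lower in level, at 1.48 RPKM (870 reads) against 0.253 RPKM (145 reads). Its ratio was 5.83 (4.89 to 7.0). With the pseudocount of 0.1 its log2 ratio was 2.16, and with a pseudocount of 1 it was 0.98, just under 2-fold. Part of the exons of Thbs3 (318 bases, 6.59%) overlaps Mtx1 on the opposite strand, and whether the counting used strand is not given in the sources used here.

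The balance among the thrombospondins can be read within each library, where the library size cancels. The RPKM of Thbs1 was 14.4 times that of Thbs2 in supportive ISEMFs and 46.9 times in non-supportive ISEMFs, a 3.26-fold difference (3.17 to 3.36, a normal approximation on the log scale from the reads). Among these 3 genes, Thbs1 was the highest in both libraries, Thbs2 the next and Thbs3 the lowest. Thbs4, another gene of the family, had 0 reads in supportive but 177 in non-supportive ISEMFs. With 3 reads set in place of the 0 it was 60.7-fold lower, while its exact interval starts at 48.9-fold lower. Comp, which encodes thrombospondin 5, had 41 and 0 reads. By the same rule it was 13.3-fold higher, while its exact interval starts at 10.3-fold higher. Thbs4 and Comp were under an RPKM of 1 in both libraries and are named here after their values were seen.

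Postn and Tnc, whose products bind each other as well as fibronectin in the matrix, stood on opposite sides. Postn encodes periostin, a fasciclin-domain protein of fibroblasts that binds αv integrins and helps collagen cross-linking. It stood at 85.1 RPKM (68261 reads) against 41.6 RPKM (32398 reads). The ratio was 2.05 (2.02 to 2.07), so it lay just past 2-fold. Tnc encodes tenascin-C, a large protein of embryonic and healing mesenchyme that can oppose adhesion to fibronectin. Tnc stood at 21.1 RPKM (11721 reads) in supportive but 236 RPKM (127654 reads) in non-supportive ISEMFs. It was thus 11.2-fold lower in supportive ISEMFs (11.0 to 11.4). Its rank among protein-coding genes was 61 in non-supportive but 1080 in supportive ISEMFs, and its log2 ratio was the 135th from the bottom of the 10086 genes. Postn was 4.04 times as high as Tnc in RPKM in the supportive library and 0.176 times as high in the other, so the order of the pair differed between the libraries. Fn1 was 51.6 times Tnc in supportive but only 3.60 times in non-supportive ISEMFs.

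Sparcl1 encodes hevin, the closest relative of osteonectin. It stood at 0.0944 RPKM in supportive ISEMFs, from only 21 reads, but at 1.38 RPKM (298 reads) in non-supportive ISEMFs. The RPKM was 14.6-fold lower in supportive ISEMFs, and the small number of reads leaves an interval of 9.38 to 23.9. The log2 ratio of -2.93 became -1.12 with a pseudocount of 1, because the level was low in both libraries. Sparc was higher than Sparcl1 by 17998 times in RPKM in the supportive library and 1160 times in the other, so osteonectin RNA dominated in both. Sparcl1 is a known product of endothelium. The 6 endothelial markers examined (Pecam1, Cdh5, Kdr, Tek, Cldn5 and Emcn) summed to an RPKM of 0.152 and 0.239, with none at an RPKM of 1. They did not share a direction. Kdr had 2 reads in supportive and 88 in non-supportive ISEMFs, Pecam1 0 and 8, and Cdh5 0 and 7, while Tek had 65 and 2, Emcn 10 and 13, and Cldn5 none. Their part in the Sparcl1 result was not tested.

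Spp1 showed the largest ratio of the 10. It encodes osteopontin, a phosphorylated glycoprotein that binds αv integrins through its RGD and is also a ligand of CD44, made by bone cells, macrophages and stressed mesenchyme. Spp1 stood at 1.06 RPKM (396 reads) in supportive but 28.9 RPKM (10488 reads) in non-supportive ISEMFs. This was 27.3-fold lower (24.6 to 30.2), and the 48th from the bottom of the 10086 genes. Macrophage markers differed in the same direction. All 14 genes of the macrophage list had a lower RPKM in the supportive library, and the list summed to 6.89 there but to 133 for non-supportive ISEMFs. Of the 14, 8 had no read in the supportive library, among them Ptprc, Emr1 (F4/80), Itgam and Tyrobp. These had 879, 622, 1070 and 1174 reads in the non-supportive library. Such a 0 allows a share of up to 5.92e-06% of the reads on genes, which is 3 reads in that library. The other 6 markers did have reads there, with 592 for Lyz2, 51 for Cd68, 25 for Csf1r, 10 for Mrc1, 4 for Laptm5 and 3 for Fcer1g. The part of macrophage RNA in the Spp1 result was not tested.

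Spon1 encodes F-spondin, a protein first known from the floor plate and from axon guidance, which shares the thrombospondin type 1 repeat. It was low in both libraries, at 0.126 RPKM (75 reads) for supportive and 0.519 RPKM (300 reads) for non-supportive ISEMFs. The RPKM was 4.12-fold lower in supportive ISEMFs (3.19 to 5.37). It was left out of the count of 2-fold differences for its level, and with no minimum level it would be the fourth member lower in supportive ISEMFs. Its relative Spon2 was near 1 in both libraries, at 0.970 and 1.03, with a ratio of 0.941 and an interval of 0.75 to 1.18 that includes no difference.

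Lengths bear on comparisons between genes. The deposited exon length equals that of GENCODE vM1, an annotation of the same genome build, for 2 of the 10 members (Thbs2 and Sparcl1). The gap is greatest for Spp1, at 5228 bases deposited and 1648 bases in GENCODE vM1. With the latter length the RPKM of Spp1 would be 3.36 and 91.6, which moves its rank in the non-supportive library from 853 to 237. The ratio between libraries does not depend on length. In GENCODE vM1 the 50-base windows from protein-coding transcripts of 9 members were found in no other gene's protein-coding transcripts. Exons outside those transcripts, which the counts may include, were not searched. Of the windows of Fn1, 2.38% were shared with Apol7d, an overlapping gene model with 10 and 18 reads.

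Of 18 further genes of the same families, 13 stayed below an RPKM of 1 in both libraries. Of the 5 others, 2 were at least 2-fold higher and 1 at least 2-fold lower in supportive ISEMFs, where all genes gave 9.01% and 9.27%. Smoc1, a modular calcium-binding relative of Sparc and a BMP antagonist, had an RPKM of 18.6 against 0.654 and a ratio of 28.5 (25.1 to 32.5). It reached an RPKM of 1 only in the supportive library, where it was higher. Tgfbi, the fasciclin-domain relative of Postn, had 7.21 against 1.49 and a ratio of 4.85 (4.34 to 5.43), in the same direction as Postn. Smoc2 was in the other direction, at 3.62 against 18.3, which is 5.06-fold lower (4.68 to 5.49). Smoc1 and Smoc2, which encode near relatives, therefore stood on opposite sides. The remaining genes of this list above the minimum, Fstl1 and Spon2, were within 2-fold.

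The receptors of these proteins were also divided. Of 16 receptor genes, 14 reached an RPKM of 1, of which 3 were at least 2-fold higher and 4 at least 2-fold lower in supportive ISEMFs. Over all 10086 genes the shares were 9.01% and 9.27%. The lower set held both chains of the classic fibronectin receptor. Itga5, the α5 chain, was at 14.4 against 47.4, 3.28-fold lower (3.17 to 3.39). Itgb1, the β1 chain shared by many integrins, was at 272 against 658, 2.42-fold lower (2.41 to 2.44). Cd44, a receptor of hyaluronan and osteopontin, was at 13.0 against 71.9, 5.55-fold lower (5.44 to 5.66). Cd36, which binds the thrombospondin type 1 repeats, was at 1.14 against 9.74, 8.55-fold lower (7.64 to 9.60). Both Cd44 and Cd36 are also carried by macrophages, whose markers were lower in the supportive library too, and that share was not tested.

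The receptor genes higher in supportive ISEMFs were Itga4, Itgb5 and Lrp1. Itga4 encodes the α4 chain of integrins that bind fibronectin and osteopontin. It was at an RPKM of 1.78 against 0.408, a ratio of 4.36 (3.99 to 4.76), and reached 1 only in the supportive library. Itgb5 encodes the partner of αv that meets RGD ligands, and it was at 21.1 against 9.33, a ratio of 2.26 (2.16 to 2.37). Lrp1, the endocytic receptor that clears thrombospondins, was at 38.3 against 15.8, a ratio of 2.41 (2.38 to 2.45). The other 7 receptor genes above the minimum were within 2-fold. Itga8, the α8 chain, was closest to that limit, at 7.30 against 3.70 with a ratio of 1.97, and it passed 2-fold under each of the 3 other scalings of the libraries. Among those, Itgav was at 37.5 and 44.4 and Itgb3 at 15.7 and 15.2, and the interval of the Itgb3 ratio, 0.998 to 1.07, includes no difference. Itga8, Itgav and Itgb3 are named after their values were seen, the last 2 as the αv and β3 chains of the osteopontin receptor. Itgb8, under the minimum and likewise named after its values were seen, had 789 reads in supportive but 22 in non-supportive ISEMFs.

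**Figure D3:**
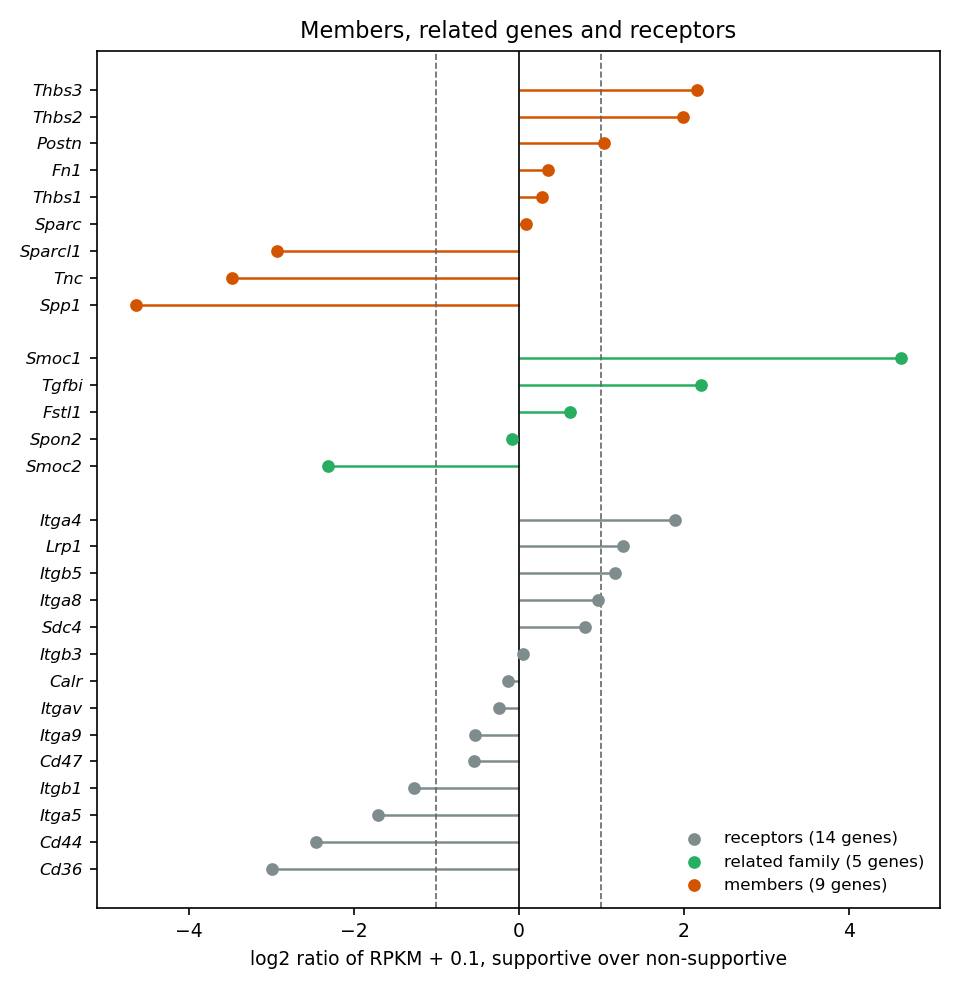
Log2 ratio of RPKM + 0.1, supportive over non-supportive, for the 9 members, 5 related genes and 14 receptor genes reaching 1 RPKM in one library or both; dashed lines mark 2-fold. Each list has genes beyond both dashed lines, from Spp1 at -4.64 to Smoc1 at 4.64.

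The CCN family, another set of matricellular genes, was more uniform in direction. Of its 6 genes, 5 reached an RPKM of 1, 3 of them at least 2-fold higher and 0 at least 2-fold lower in supportive ISEMFs, with a median log2 ratio of 1.18. The shares over all genes were again 9.01% higher and 9.27% lower. The difference between the families was not tested.

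Some members are neighbors in the genome. Sparcl1 (chr5:104508130-104543107, minus strand) and Spp1 (chr5:104864137-104870069, plus strand) stand at either end of a cluster of genes for phosphorylated, calcium-binding matrix proteins of bone and tooth, 321 kb apart in mm9. Dspp, Dmp1, Ibsp and Mepe lie between them. Dspp and Mepe had no read in either library, Ibsp had 0 reads and 5 reads, and Dmp1 had 4 and 24. The 2 ends of the cluster were lower in supportive ISEMFs, and so was Gm10047, the next gene beyond Spp1, at 1.09 against 3.40 RPKM (104 and 314 reads). Farther out, Nudt9 had an RPKM of 4.81 against 7.04 and Pkd2 of 13.2 against 12.4. On chromosome 17, Thbs2 (chr17:14802507-14831269, minus strand) and Smoc2 (chr17:14416513-14541797, plus strand) follow one another with 261 kb between them and no further protein-coding gene of the table in the gap. This pair differed in opposite directions between the libraries.

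**Figure D4:**
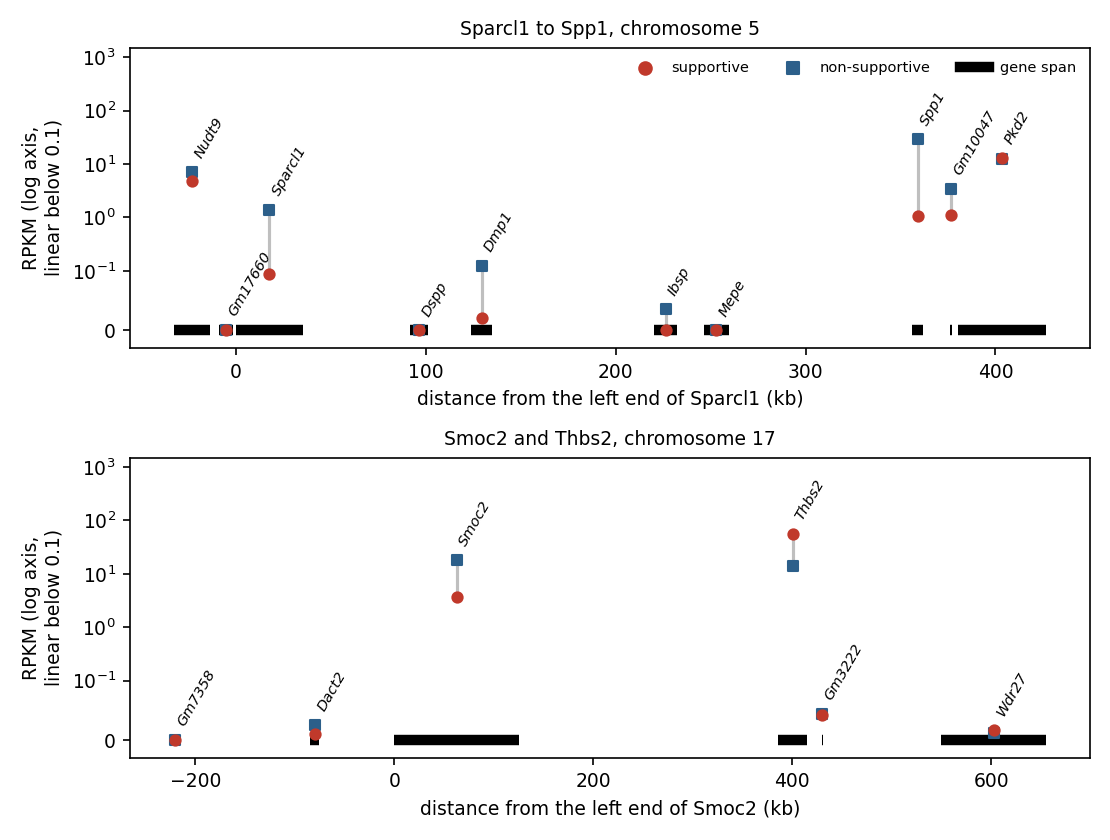
RPKM in the supportive (red circles) and non-supportive (blue squares) library of protein-coding genes around Sparcl1 and Spp1 (top) and around Smoc2 and Thbs2 (bottom), against the distance in kb from the left end of Sparcl1 or Smoc2; black bars are gene spans and the y axis is log above 0.1. The genes between Sparcl1 and Spp1 lie near 0 in both libraries, and Smoc2 and Thbs2 show opposite orders of the libraries.

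What the members have in common outside the counts is their place of action. A secretory or extracellular annotation is given for 9 of the 10 in the deposited localization columns, and the entries for Thbs2 read NA. Postn and Fn1 are the 2 members on the authors' Wnt pathway list.

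The labelled cell type was checked against its markers. Acta2, the gene of α-smooth muscle actin, was at 908 and 1410 in supportive and non-supportive ISEMFs. Vim was at 325 and 407, Col1a1 at 317 and 288, and Tagln at 206 and 360. Col1a2, at 286 and 41.6, and Pdgfrb, at 28.1 and 7.67, were at least 2-fold higher in supportive ISEMFs. Pdgfra, at 3.37 and 12.1, was at least 2-fold lower there. The 7 myofibroblast markers summed to 2074 and 2527, while the 6 epithelial markers summed to 0.530 and 3.47, and were divided. Krt20 was at 0.0799 and 3.13, lower in supportive ISEMFs, and Cdh1 at 0.427 and 0.0497, higher there. The 4 mesothelial markers summed to 0.127 and 0.0432. The 7 smooth muscle markers summed to 408 and 661, the 5 pericyte markers to 7.56 and 5.84, and the 6 glial and neuronal markers to 8.67 and 3.71. These lists were divided as well. Synm was at 1.22 and 0.0753, while Myh11 was at 26.3 and 108, Cnn1 at 78.6 and 187, and Des at 0.575 and 3.40. Notch3 was at 2.38 and 0.158, but Rgs5 at 0.578 and 2.37. S100b, at 6.69 and 0.116, made most of the glial and neuronal sum for supportive ISEMFs, while Tubb3 was at 1.92 and 3.52. Epcam had 0 and 5 reads and Sox10 had none. As a ratio of summed levels, the macrophage list differed most among these lists.

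**Figure D5:**
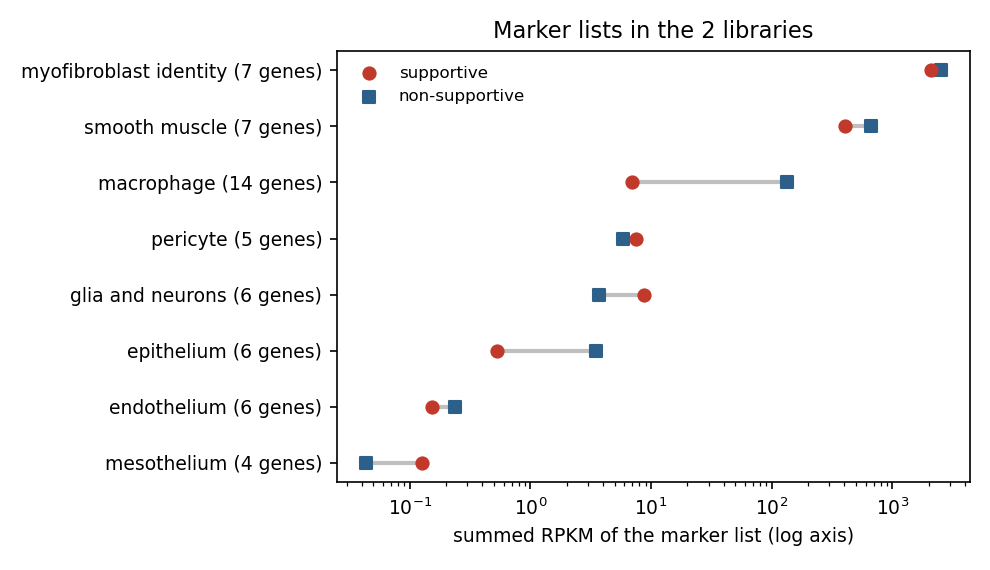
Summed RPKM of each of 8 marker lists in the supportive (red circles) and non-supportive (blue squares) library on a log axis, with the number of genes in brackets. The macrophage list lies at 6.89 and 133, the widest gap on this log axis, while the endothelial and mesothelial lists lie below 1 in both libraries.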

How the data were processed

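The authors made the libraries from mRNA with the TruSeq RNA kit and aligned the reads to mm9 with TopHat (TopHat2 2.0.4 in the submitters' processing notes) using Ensembl genes, keeping unique hits. The deposited counts came from HTSeq 0.5.4p3 and are unscaled whole reads for each gene. The deposited RPKM column equals these counts over exon length and library size, and the size was recovered as 71463423 (supportive) and 69449374 (non-supportive) reads. The authors' log2 ratio and DESeq p-values were not used, and the deposited Wnt pathway table served only for its gene names.

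Genes reaching 1 RPKM in one library or both were compared by a 2-fold threshold on RPKM + 0.1. Ratios and their Clopper-Pearson intervals use reads and library sizes without the pseudocount. With 1 library per population, no test that needs replicates (such as edgeR's or DESeq2's) could be fitted, so no p-value is given. A fold against a library with 0 reads was computed at 3 reads in that library. The alternatives were other pseudocounts, minimum levels, folds and scalings (TMM, edgeR 4.0.16, and median-of-ratios, DESeq2 1.42.0), and GENCODE vM1 exon lengths, the last chosen after seeing the data. All 37309 gene identifiers were found in GENCODE vM1, which gave coordinates and coding sequences. The ratio, its interval and the 2-fold count were tested on simulated Poisson counts with known folds. The simulation held no spread between cultures, so it checks the calculation only and not the calls in these populations. The members and gene lists were chosen with earlier results of these data known. All members are named, and of the other lists mainly genes past 2-fold. Calculations ran in Python 3.11.15 with scipy 1.17.1, pandas 2.3.3 and numpy 2.4.6, and in R 4.3.3.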

Additional observations from a re-analysis of the deposited data

How the results depend on the processing

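The direction of the log2 ratio of each of the 10 members was the same under the other pseudocounts, the 3 other scalings and the GENCODE vM1 lengths. Its size was less steady. Of these 60 values, 23 moved out of the counting interval of the ratio and 0 reversed. The intervals therefore do not cover the choice of pseudocount or scaling. The count of members at least 2-fold apart, 6 in the report, was between 4 and 7 under all alternatives run. It was 4 of 9 at a 4-fold threshold, where Thbs2 had a log2 ratio of 1.98 and fell short. It was 4 of 7 with a minimum RPKM of 5, 5 of 9 with a pseudocount of 1, and 7 of 10 with no minimum. The count over all genes, 1844 of 10086 (18.3%) in the report, was 659 of 10086 (6.53%) at a 4-fold threshold. It was 1199 of 10086 (11.9%) with a pseudocount of 1. With a minimum RPKM of 5 it was 878 of 5061 (17.3%), and with no minimum 3660 of 37309 (9.81%). The receptor count of 7 of 14 was 2 of 14 at a 4-fold threshold and 6 of 14 with a pseudocount of 1. It was 6 of 12 with a minimum RPKM of 5 and 8 of 16 with no minimum. Under each of the 3 other scalings it was 8 of 14, where Itga8 joined the higher set. The related family count of 3 of 5 was 5 of 18 with no minimum RPKM. The median log2 ratio of the members was 0.34 with TMM factors and 0.33 with median-of-ratios size factors. Those size factors were 1 for both libraries, so that setting compared the read counts without scaling for depth. The median of the members was 0.41 with totals that leave out the mitochondrial chromosome, which held 14.6% of gene reads for supportive but 7.85% for non-supportive ISEMFs. Leaving it out moved the median of all genes from -0.07 to 0.05, so that Sparc, Thbs1 and Fn1 stood at 0.21, 0.41 and 0.48. The ratio of the summed RPKM, 1.09 in the report, was 1.14 with TMM factors, 1.13 with median-of-ratios size factors, 1.19 without the mitochondrial chromosome, 1.09 with GENCODE vM1 lengths (4503 and 4142) and 1.12 without Sparc. No paired analysis was possible because each population has 1 library, and no library could be left out for the same reason. The depth limits Sparcl1, Spon1 and Thbs3 most, which had 21, 75 and 145 reads in the library where they were lower.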
